A study of Mus musculus with 16 samples.

Results

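The genes described here are the GDNF family co-receptors Gfra1, Gfra2, Gfra3 and Gfra4, their signalling partner Ret, the ligands Gdnf, Nrtn and Artn, the endothelin B receptor gene Ednrb and its ligand gene Edn3. They were chosen by name, with earlier results of these data known, so that their values are a description. All 10 were found, each as 1 feature among the 23234 features of the deposited tables. The study measured RNA of the embryonic mouse cloaca and of the tissues it gives rise to, as part of an atlas of the developing genital tubercle and urethra. Its 4 groups were ventral and dorsal cloaca at E10.5, and urethra (ventral) and hindgut (dorsal) at E13.5. Tissue was cut by laser from cresyl violet stained frozen sections of wild-type male CD1 embryos, an outbred stock, and no embryos were pooled. Both regions were taken from every one of the 8 embryos, 4 per age, which gives 16 libraries. The E10.5 samples are labelled as cloaca only, and those of E13.5 as epithelium of the pelvic urethra or of the hindgut and rectum.

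The deposited tables hold 1 FPKM value (read fragments divided by transcript length and by library size) per gene, region and age. They give no value per embryo, so no spread, standard error or p-value could be had: none of the differences given has a replicate check. The depth of the libraries is unknown. Differences are those of log2(FPKM + 1), ventral minus dorsal cloaca or urethra minus hindgut. Genes that reached 1 FPKM in either region were kept, and those with a difference of at least 1, a size rule that equals 2-fold on that scale, were counted. Both ages were normalized in separate tables, and levels at E10.5 and E13.5 are set side by side without a comparison. All 8 epithelial markers looked at, such as Epcam and Cdh1, stood above 1 FPKM in each group, and their sums were 1717 and 1758 FPKM in ventral and dorsal cloaca and 1326 and 2006 FPKM in urethra and hindgut. Of 9 urethral markers 6 were counted as higher in urethra at E13.5, and of 9 hindgut markers 8 as higher in hindgut. The shares of all genes kept were 4.16% and 4.59%. The other 3 urethral markers were high in both regions. Krt15 had 474 FPKM in urethra and 517 FPKM in hindgut, Perp 222 and 172 FPKM, and Trp63 151 and 75.6 FPKM. At E10.5, 8 of the 9 urethral markers passed the minimum, and all 8 were counted as higher ventrally. Of the 9 hindgut markers 5 passed, with 3 counted as higher dorsally and 1 ventrally. That one was Vil1, at 5.99 FPKM in ventral and 1.83 FPKM in dorsal cloaca. Of all genes kept at that age, 10.6% were higher ventrally and 9.62% dorsally. Cdx2, a regulator of intestinal identity, was listed at 0 in the E13.5 hindgut, while other intestinal genes were high there, so a value of 0 may be a failed estimate. Summed FPKM of 6 features of red cell and leukocyte markers was 1123 in ventral and 858 in dorsal cloaca, and 75.5 in urethra and 34.7 in hindgut, and the part of blood in the results below was not tested.

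Ligands of the GDNF family are secreted proteins. Each binds best to 1 of the 4 co-receptors, which are tethered to the outer membrane by a lipid anchor: GDNF to GFRA1, neurturin to GFRA2, artemin to GFRA3 and persephin to GFRA4. The bound pair then activates RET, a receptor tyrosine kinase, in the cell that carries it. GDNF, GFRA1 and RET are needed for the branching of the ureteric bud in the kidney and for the nerve cells of the gut wall. Endothelin 3 and EDNRB, a G protein-coupled receptor, are needed as well for the nerve precursors that colonise the hindgut, and for pigment cells.

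RefSeq promoter entries (GRCm38.p6, the assembly that mm10 represents) matched 7 of the 10 genes. Shown here are the 250 bases before the outermost RefSeq start of a ligand, a co-receptor and a receptor gene that were counted as different between regions. They are Gdnf at chr15:7809798-7810047 on the plus strand, Gfra4 at chr2:131043089-131043338 on the minus strand and Ednrb at chr14:103843702-103843951 on the minus strand. None of the 3 windows overlaps an untranslated region in GENCODE M21, and that of Ednrb lies before an inner start of the gene. Each reads 5′ to 3′ on the strand of the gene, and capitals mark the TATA box motif, spelled TATAAA, or the CCAAT box motif. Both strands were searched, a match on the opposite strand is shown as its reverse complement, and no matches overlap.
Gdnf: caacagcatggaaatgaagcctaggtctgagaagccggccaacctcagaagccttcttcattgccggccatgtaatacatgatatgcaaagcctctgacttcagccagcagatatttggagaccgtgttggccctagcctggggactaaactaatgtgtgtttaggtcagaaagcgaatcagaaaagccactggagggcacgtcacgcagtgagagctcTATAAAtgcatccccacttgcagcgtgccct
Gfra4: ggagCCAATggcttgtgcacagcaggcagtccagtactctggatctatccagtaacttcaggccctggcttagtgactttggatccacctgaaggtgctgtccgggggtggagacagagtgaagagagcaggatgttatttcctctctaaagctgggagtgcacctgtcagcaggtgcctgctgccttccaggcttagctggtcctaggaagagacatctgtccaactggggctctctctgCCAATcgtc
Ednrb: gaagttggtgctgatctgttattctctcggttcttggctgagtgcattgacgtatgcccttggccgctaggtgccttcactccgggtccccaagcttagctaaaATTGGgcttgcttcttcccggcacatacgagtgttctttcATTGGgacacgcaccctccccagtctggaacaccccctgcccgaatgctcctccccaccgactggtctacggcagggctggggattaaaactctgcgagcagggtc
The Gdnf window held TATAAA, starting 31 bases before the annotated start, and no CCAAT. Neither the Gfra4 nor the Ednrb window held TATAAA. Each held CCAAT more than once, starting 246 and 9 bases before the start in Gfra4 and, on the opposite strand, 146 and 106 bases before it in Ednrb. Over 32851 promoter windows of the same length, 12.4% held TATAAA and 33.8% held CCAAT. They are descriptions of the sequence and no evidence of use. RefSeq lists a second, inner start for Gdnf and for Gfra4, whose windows are not shown.

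Gfra2, the co-receptor for neurturin, showed the largest difference between regions of the 10 genes at E10.5. It stood at 57.1 FPKM in ventral cloaca, against 0.0718 FPKM in dorsal cloaca. Its level in ventral cloaca was above that of 95.1% of all features, and its difference of 5.76 was rank 5 of the 12379 genes kept at that age, counted from the ventral side. At E13.5 the same lean was present, with 10.01 FPKM in urethra against 0.327 FPKM in hindgut. The difference there was 3.05, rank 45 of 12369 from the urethral side. The gene (XLOC_006077) lies on the plus strand of chromosome 14, from 70890130 to 70979838 on mm10, and no other feature of the tables overlaps it.

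Gfra1, the co-receptor for GDNF, was also higher ventrally at E10.5, at 5.16 FPKM in ventral cloaca against 1.43 FPKM in dorsal cloaca. The ratio was 3.61 and the difference 1.34, which fell to 0.66, short of the size rule, with a pseudocount of 5. At E13.5 the values were close together, with 3.47 FPKM in urethra and 4.74 FPKM in hindgut, a difference of -0.36. Gfra1 (XLOC_010574, chromosome 19, 58236692 to 58454466, minus strand) shares its span in the tables with the feature Gm10007, so its reads are less certain to be its own, although Gm10007 was listed at 0 in 3 of the 4 groups and at 0.046 FPKM in hindgut.

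Gfra4, the co-receptor for persephin, was near equal in the regions of the cloaca. At E10.5 it stood at 2.68 FPKM in ventral cloaca and 3.06 FPKM in dorsal cloaca, a difference of -0.14. In the E13.5 tissues it was counted as higher in urethra, at 4.94 FPKM against 1.09 FPKM in hindgut, with a ratio of 4.55 and a difference of 1.51. That count was lost with a pseudocount of 5, where the difference was 0.71. The gene (XLOC_012277) spans 131039632 to 131043088 of chromosome 2 on the minus strand, and GENCODE M21 places the microRNA gene Mir6973b inside it.

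Gfra3, the co-receptor for artemin, was the lowest of the 4 in each group except hindgut, where Gfra2 was lower. It reached 1.09 FPKM in ventral cloaca against 0.0627 FPKM in dorsal cloaca. Its difference of 0.98 lay just under the size rule, and values this low depend on the pseudocount, since 0.1 in place of 1 gave 2.87. At E13.5 neither region reached 1 FPKM, with 0.138 FPKM in urethra and 0.822 FPKM in hindgut. Gfra3 (XLOC_009663) spans 34689903 to 34720387 of chromosome 18 on the minus strand.

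**Figure D1:**
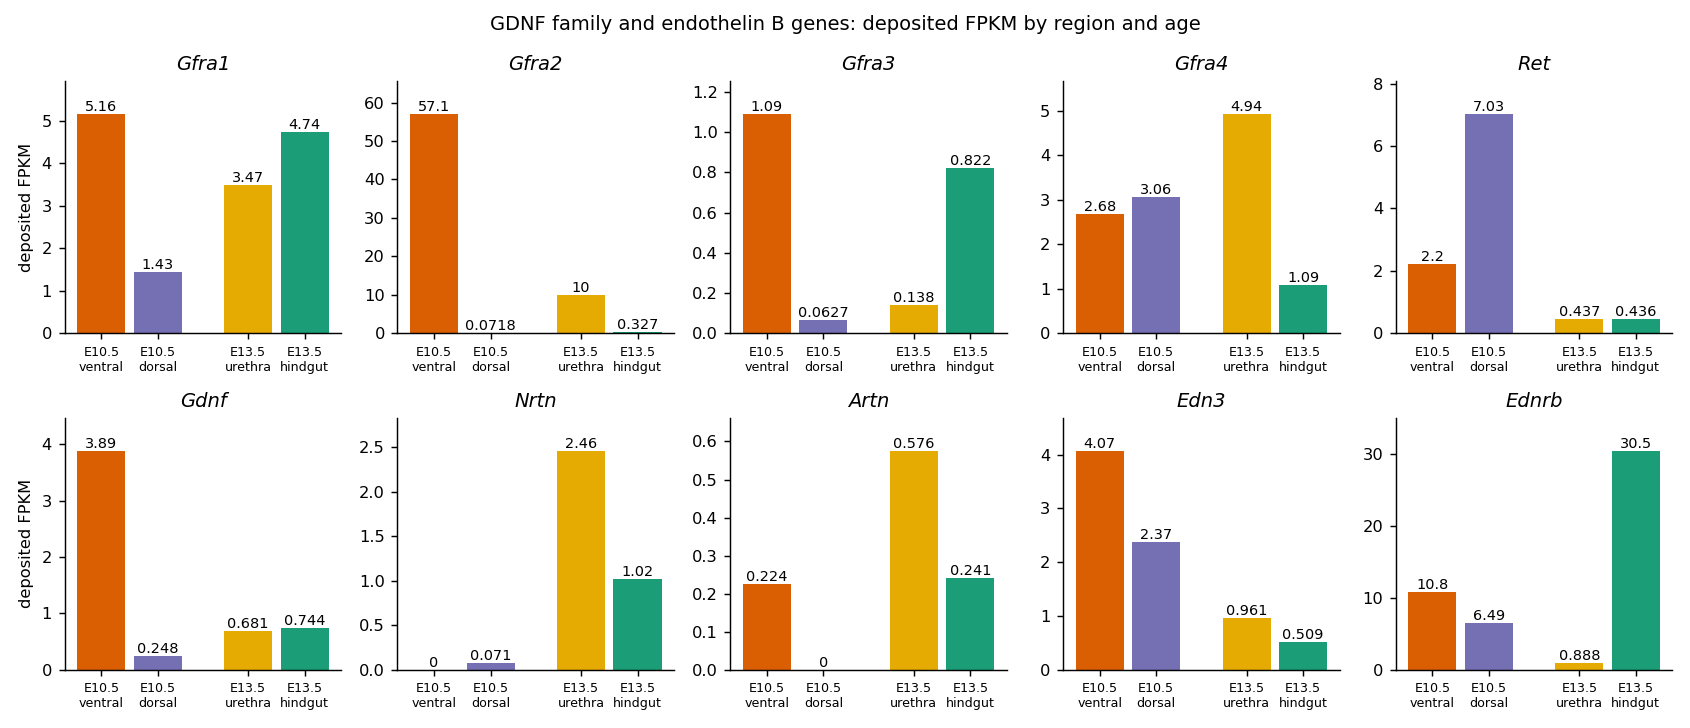
Deposited FPKM of the 10 genes in ventral and dorsal cloaca at E10.5 and in urethra and hindgut at E13.5, 1 bar per deposited value, with a separate linear axis from 0 for each gene. Gfra2 is the higher in ventral cloaca and in urethra, Ret in dorsal cloaca at 7.03 FPKM, and Ednrb in hindgut at 30.5 FPKM.

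Because FPKM is scaled to transcript length, the co-receptors can be set beside each other within a group. Their summed level was 66.0 FPKM in ventral cloaca and 4.62 FPKM in dorsal cloaca, and 18.6 FPKM in urethra and 6.97 FPKM in hindgut. Gfra2 made up 86.5% of that sum in ventral cloaca and 1.55% in dorsal cloaca. In dorsal cloaca Gfra4 held 66.2% and Gfra1 30.9%. In urethra Gfra2 again held the largest part, at 53.9%, with 26.6% for Gfra4 and 18.7% for Gfra1. In hindgut Gfra1 led with 68.0%, followed by Gfra4 at 15.6%, Gfra3 at 11.8% and Gfra2 at 4.69%. Gfra2 thus led in ventral cloaca and in urethra, and in neither dorsal cloaca nor hindgut. As these are bulk samples, fewer cells of a type and less RNA per cell cannot be told apart, here and in all values that follow.

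**Figure D2:**
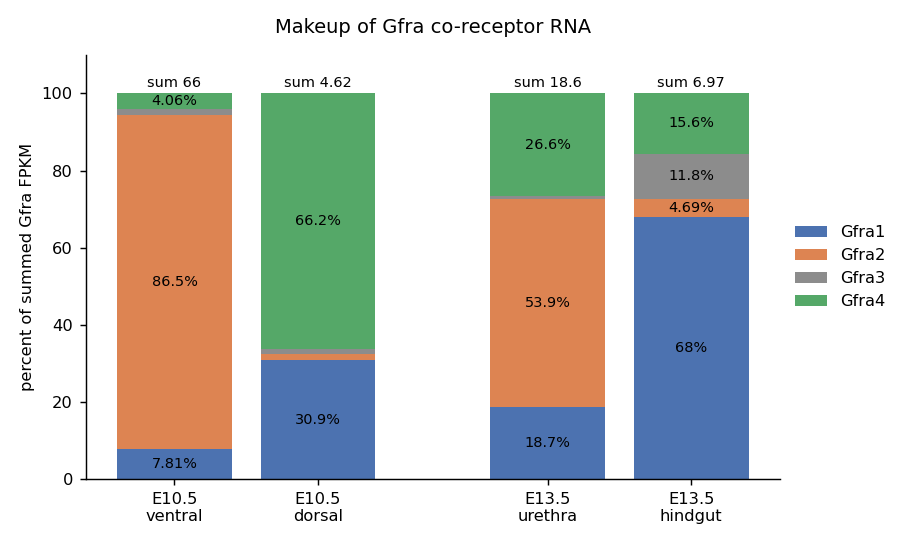
Percent of the summed FPKM of Gfra1 to Gfra4 taken by each gene in the 4 groups, with the sum in FPKM above each bar. Gfra2 takes 86.5% in ventral cloaca and 53.9% in urethra, while Gfra4 leads in dorsal cloaca and Gfra1 in hindgut.

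Ret, the kinase through which the co-receptors signal, leaned the other way. It stood at 2.2 FPKM in ventral cloaca, against 7.03 FPKM in dorsal cloaca, a ratio of 0.314. Its difference of -1.33 was rank 641 of 12379 from the dorsal side, and with a pseudocount of 5 it was -0.74, inside the size rule. At E13.5 Ret was low and nearly equal, at 0.437 FPKM in urethra and 0.436 FPKM in hindgut. At E10.5 the region with the higher Gfra2 level was thus not the one with the higher Ret level. The summed co-receptors stood at 30.0 times Ret in ventral cloaca and 0.66 times Ret in dorsal cloaca. At E13.5 they stood at 42.4 times Ret in urethra and 16.0 times Ret in hindgut, both over Ret values below 1 FPKM. On mm10, Ret (XLOC_017402) spans 118151748 to 118197744 of chromosome 6 on the minus strand.

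Ret marks nerve precursors of the gut wall and the nephric duct, so markers of both were looked at. Of 14 neural crest and enteric nerve markers, 4 passed the minimum of 1 FPKM at E10.5. Of these, 1 was counted as higher dorsally and none ventrally, beside 20.2% of all genes kept in either direction. The list summed to 44.9 FPKM in ventral and 54.6 FPKM in dorsal cloaca, and to 35.6 FPKM in urethra and 35.5 FPKM in hindgut. Most of that was Uchl1, Erbb3 and Hand2. The defining gene Foxd3 was listed at 0 in all 4 groups, and Sox10 at 0 in all but hindgut, where it had 0.0760 FPKM. Among 9 nephric duct markers, Pax2 had 2.50 FPKM in ventral and 5.10 FPKM in dorsal cloaca, higher on the side where Ret was higher but within the size rule. Pax8 and Calb1 were listed at 0 in both parts of the cloaca, and Lhx1, Wnt9b, Sim1 and Emx2 stood below 1 FPKM in both. The list summed to 62.3 FPKM in ventral and 52.3 FPKM in dorsal cloaca. It also holds Gata3, which went the other way, with 38.9 FPKM in ventral and 7.08 FPKM in dorsal cloaca. The part of nerve precursors or Pax2 bearing cells in the Ret difference was not tested.

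Of the ligands, Gdnf was counted as higher ventrally at E10.5. It had 3.89 FPKM in ventral cloaca against 0.248 FPKM in dorsal cloaca. The difference was 1.97, rank 273 of 12379 from the ventral side, and 0.76 with a pseudocount of 5. A minimum of 5 FPKM would leave the gene out. In the later tissues Gdnf stood below 1 FPKM in both regions, at 0.681 FPKM in urethra and 0.744 FPKM in hindgut. Gdnf is made by mesenchyme in the embryonic kidney and gut. Of 10 mesenchyme markers, 7 passed the minimum at E10.5. Of these, 1 was counted as higher ventrally and 1 dorsally, beside 20.2% of all genes kept in either direction. Summed FPKM of the 10 was 109 in ventral and 107 in dorsal cloaca. Prrx1 was the highest in that sum, at 65.1 FPKM in ventral and 44.7 FPKM in dorsal cloaca, within the size rule. Twist1, a mesenchymal transcription factor gene, stood at 9.19 FPKM in ventral against 1.98 FPKM in dorsal cloaca, and Col3a1 at 3.36 against 13.2 FPKM. Smooth muscle markers summed to 5.49 FPKM in ventral and 13.3 FPKM in dorsal cloaca, and to 4.54 FPKM in urethra and 2.75 FPKM in hindgut. Of these 6, 3 passed the minimum at E10.5, with 1 counted as higher ventrally and 2 dorsally, beside the same 20.2% of all genes. Tagln, an actin-binding protein gene, had 2.197 FPKM in ventral and 0.354 FPKM in dorsal cloaca, while Des, the desmin gene, had 1.76 FPKM in ventral and 10.9 FPKM in dorsal cloaca and Cnn1, a calponin gene, was listed at 0 in ventral and at 1.80 FPKM in dorsal cloaca. The part of these cells in the Gdnf difference was not tested. Gdnf (XLOC_006616) spans 7811011 to 7837575 of chromosome 15 on the plus strand.

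Nrtn, which encodes the preferred ligand of GFRA2, was not seen where Gfra2 was highest. It was listed at 0 in ventral cloaca and at 0.0710 FPKM in dorsal cloaca. At E13.5 it had 2.46 FPKM in urethra and 1.02 FPKM in hindgut, a ratio of 2.42 and a difference of 0.78 that stayed inside the size rule but was 1.20 with a pseudocount of 0.1. Artn, the artemin gene, was below 1 FPKM in all groups, at 0.224 FPKM in ventral cloaca, listed at 0 in dorsal cloaca, and at 0.576 FPKM in urethra and 0.241 FPKM in hindgut. Pspn, the persephin gene, was listed at 0 in ventral cloaca and at 0.343 FPKM in dorsal cloaca, and had 0.149 FPKM in urethra and 0 in hindgut. Among the 4 ligand genes, Gdnf was thus the highest in ventral cloaca and Nrtn the highest in both E13.5 regions. Nrtn (XLOC_009194) spans 56751325 to 56757530 of chromosome 17 and Artn (XLOC_014705) 117926162 to 117929763 of chromosome 4, both on the minus strand.

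Ednrb showed its large difference at E13.5, with hindgut as the higher side. At E10.5 it stood at 10.8 FPKM in ventral cloaca and 6.49 FPKM in dorsal cloaca, a ratio of 1.66 and a difference of 0.65 within the size rule. At E13.5 it had 0.888 FPKM in urethra against 30.5 FPKM in hindgut. The difference of -4.06 was rank 21 of 12369 from the hindgut side, and it ranged from -4.95 to -2.59 over the pseudocounts and scalings tried. Its hindgut level was above that of 89.4% of features and was the highest of the 10 genes in the E13.5 table. Whether the regional difference itself differed between the ages was not tested, as no value per embryo is at hand. The gene (XLOC_006569) lies on the minus strand of chromosome 14, from 103814615 to 103844476.

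Cells known to carry EDNRB include nerve precursors of the gut, pigment cell precursors and endothelium, and their markers were read in the same groups. Of the 14 markers of the neural crest list named above, 4 passed the minimum at E13.5. Of these, 1 was counted as higher in urethra and none in hindgut, beside 8.76% of all genes kept in either direction. That one was Hand2, at 2.36 FPKM in urethra and 0.180 FPKM in hindgut. Uchl1 had 17.7 FPKM in urethra and 18.5 FPKM in hindgut, and Erbb3 11.3 and 14.4 FPKM. Sox10 was at 0.0760 FPKM and Foxd3 was listed at 0 in hindgut, where Ednrb was highest. The part of nerve precursors in the Ednrb difference was not tested. The 7 pigment cell markers summed to 9.14 FPKM in urethra and 30.4 FPKM in hindgut. At E13.5 3 of them passed the minimum and 1 was counted as higher in hindgut, beside 8.76% of all genes kept in either direction. That one was Kit, a receptor gene shared with other cell types, at 7.11 FPKM in urethra and 28.6 FPKM in hindgut. Mitf and Tyr stood at or below 0.211 FPKM in both, and Tyrp1 was listed at 0 in both. Dct had 1.14 FPKM in urethra and 0.428 FPKM in hindgut, and Pmel 0.412 FPKM in urethra and 1.03 FPKM in hindgut, both within the size rule. At E10.5 Dct was counted as higher ventrally, at 1.82 FPKM in ventral and 0.105 FPKM in dorsal cloaca. The part of Kit bearing cells in the Ednrb difference was not tested. All 6 endothelial markers stood below 1 FPKM in each of the 4 groups, and their sums at E13.5 were 0.282 FPKM in urethra and 0.323 FPKM in hindgut. Of 10 mesenchyme markers, all kept at E13.5, 3 were counted as higher in hindgut and 1 in urethra, beside 4.59% and 4.16% of all genes kept. Lum had 0.939 FPKM in urethra and 8.19 FPKM in hindgut, while Prrx1 had 8.29 FPKM in urethra and 2.08 FPKM in hindgut. The list summed to 118 FPKM in urethra and 127 FPKM in hindgut. Vim was the highest in that sum, at 73.0 FPKM in urethra and 58.1 FPKM in hindgut, within the size rule. The part of mesenchyme in the Ednrb difference was not tested.

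Edn3, the ligand gene of that receptor, stood at 4.07 FPKM in ventral cloaca and 2.37 FPKM in dorsal cloaca. The difference was 0.59, within the size rule. In the E13.5 tissues it was below 1 FPKM, with 0.961 FPKM in urethra and 0.509 FPKM in hindgut. Ednrb was the higher in hindgut at that age. For Edn3 both values lay under the minimum, and the difference of 0.38 was 0.11 with a pseudocount of 5, so no side is read from it. Edn3 (XLOC_011530) spans 174760773 to 174784042 of chromosome 2 on the plus strand.

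The other endothelin receptor gene, Ednra, which prefers endothelin 1, was counted as higher in ventral cloaca and in urethra. It stood at 90.1 FPKM in ventral against 38.3 FPKM in dorsal cloaca, a difference of 1.21, and at 23.5 FPKM in urethra against 7.04 FPKM in hindgut, a difference of 1.61. Ednra and Ednrb thus leaned the same way at E10.5 and opposite ways at E13.5. Ednra exceeded Ednrb 8.37-fold in ventral cloaca, 5.89-fold in dorsal cloaca and 26.5-fold in urethra, where Ednrb was below the minimum at 0.888 FPKM. In hindgut the order was the reverse, with Ednrb at 4.33 times Ednra. The ligand gene Edn1 had 0.340 FPKM in ventral and 1.49 FPKM in dorsal cloaca, and was counted as higher in hindgut at E13.5, at 2.61 FPKM in urethra against 6.80 FPKM in hindgut. Ece2, an endothelin converting enzyme gene, was counted as higher dorsally at E10.5, at 2.56 FPKM in ventral against 10.2 FPKM in dorsal cloaca. Ece1, the main converting enzyme gene, was within the size rule at both ages, with 22.2 FPKM in ventral and 25.0 FPKM in dorsal cloaca and 64.5 FPKM in urethra and 45.3 FPKM in hindgut. Edn2 was listed at 0 in both parts of the cloaca and stood at 0.0780 FPKM in urethra and 0.0290 FPKM in hindgut.

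**Figure D3:**
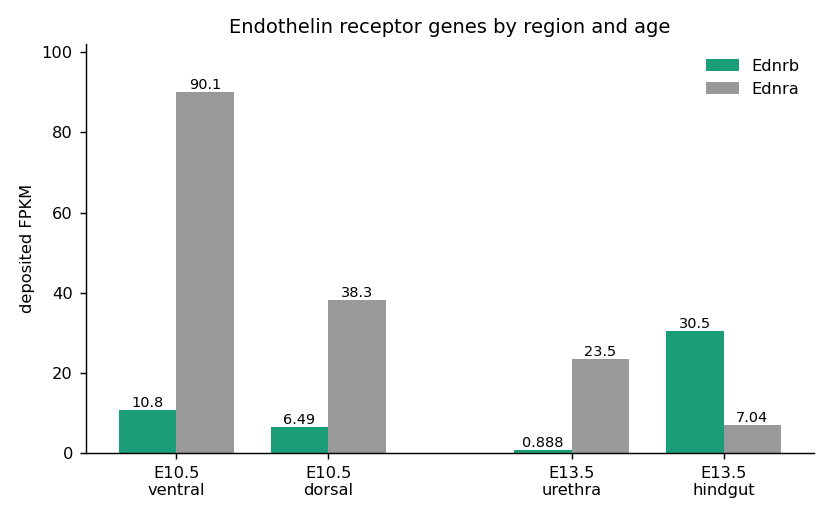
Deposited FPKM of Ednrb and Ednra in the 4 groups on a linear axis from 0. Ednra is the higher of the pair in ventral cloaca, dorsal cloaca and urethra, and Ednrb is the higher in hindgut, at 30.5 against 7.04 FPKM.

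Counted over the 10 genes, 8 passed the minimum at E10.5, of which 3 were higher in ventral cloaca (Gfra2, Gdnf and Gfra1) and 1 in dorsal cloaca (Ret). Over all 12379 genes kept at that age the share was 10.6% for ventral and 9.62% for dorsal cloaca, 20.2% in either direction. At E13.5 only 5 passed, with 2 higher in urethra (Gfra2 and Gfra4) and 1 in hindgut (Ednrb), beside 4.16% in urethra and 4.59% in hindgut of 12369 genes, 8.76% in either direction. Since the genes were picked with such differences known, nothing is read from these counts against the background. Genes at low levels crossed the size rule more often: at E10.5 30.7% of genes whose higher value lay between 1 and 5 FPKM were counted in either direction, 20.5% between 5 and 20 FPKM, and 11.6% from 20 FPKM up. At E13.5 those shares were 11.9%, 8.18% and 6.83%. Gdnf and Gfra4 belong to the lowest of these classes, Gfra1 and Ret to the middle one, and Gfra2 in ventral cloaca and Ednrb in hindgut belong to the highest. With a pseudocount of 5, Gfra2 was the only one of the 10 counted at E10.5, and Gfra2 and Ednrb were those counted at E13.5.

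**Figure D4:**
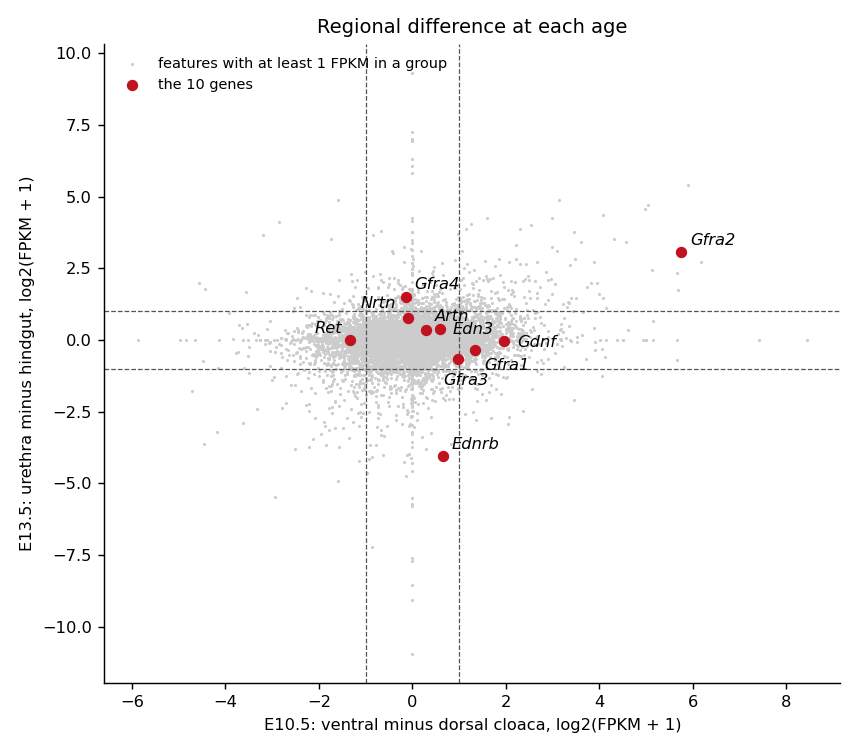
Difference of log2(FPKM + 1) between ventral and dorsal cloaca at E10.5 (x axis) and between urethra and hindgut at E13.5 (y axis), for the 10 genes (red) and all features with at least 1 FPKM in a group (grey), with dashed lines at the size rule of 1. Gfra2 lies far out on both axes at 5.76 and 3.05, and Ednrb at 0.65 and -4.06.

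Of 7 further genes of the GDNF family and its binding partners, 4 passed the minimum at E10.5, with 1 higher in each region, beside 20.2% of all genes kept, and a median of -0.35, beside 0.04 over all genes kept. Sorl1, a sorting receptor that binds GDNF and GFRA1, stood at 19.0 FPKM in ventral against 6.65 FPKM in dorsal cloaca. Gas1, a protein related to the co-receptors that also binds hedgehog, stood at 8.66 against 20.3 FPKM. At E13.5 3 of the 7 passed and none was counted, beside 8.76% of all genes kept. Gfral, the distant family member that binds GDF15, was listed at 0 in both parts of the cloaca and stood at or below 0.0042 FPKM at E13.5.

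Of 17 genes of adaptor proteins that act downstream of RET, 13 passed the minimum at E10.5, with a median of 0.24 and 1 gene counted on each side, beside the 20.2% of all genes given above. At E13.5 15 passed, none was counted, beside 8.76% of all genes, and the median was -0.06, beside 0.01 over all genes kept. Dok5 had 1.90 FPKM in ventral cloaca and was listed at 0 in dorsal cloaca, and the kinase gene Src had 6.74 FPKM in ventral against 14.7 FPKM in dorsal cloaca, just past the size rule at -1.02. Grb10 was the highest, at 459 FPKM in ventral and 411 FPKM in dorsal cloaca and 368 FPKM in urethra and 422 FPKM in hindgut. It was followed by Grb7 with 56.6 FPKM in ventral and 70.0 FPKM in dorsal cloaca, and 32.4 FPKM in urethra and 63.0 FPKM in hindgut.

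Of 10 genes that depend on RET in the mouse ureteric bud, 9 passed the minimum at each age. At E10.5 the median was 0.18, beside 0.04 over all genes kept. Of those that passed, 1 was higher dorsally and none ventrally, beside 20.2% of all genes kept in either direction. That gene was Cxcr4, a chemokine receptor gene, at 1.05 FPKM in ventral against 7.27 FPKM in dorsal cloaca. The ETS factor genes Etv4 and Etv5 stood at 2.07 and 0.879 FPKM in ventral and at 1.70 and 1.08 FPKM in dorsal cloaca. At E13.5, where Ret was below 1 FPKM in both regions, Etv4 had 17.7 FPKM in urethra and 11.3 FPKM in hindgut, and Etv5 23.9 FPKM in urethra and 16.1 FPKM in hindgut. The highest levels were those of Mmp14, a membrane protease gene, at 41.0 FPKM in ventral and 48.9 FPKM in dorsal cloaca, and at 34.8 FPKM in urethra and 40.3 FPKM in hindgut, except that Dusp6, a phosphatase gene, was higher in urethra at 37.7 FPKM. Myb, a transcription factor gene, was the 1 gene counted at E13.5, at 4.23 FPKM in urethra against 12.9 FPKM in hindgut. The share of all genes kept at that age was 8.76% in either direction. The median of the list was 0.26, beside 0.01 over all genes kept. Other receptor kinases, among them FGF receptors, also act on the Etv genes, and their part in these levels was not tested.

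**Figure D5:**
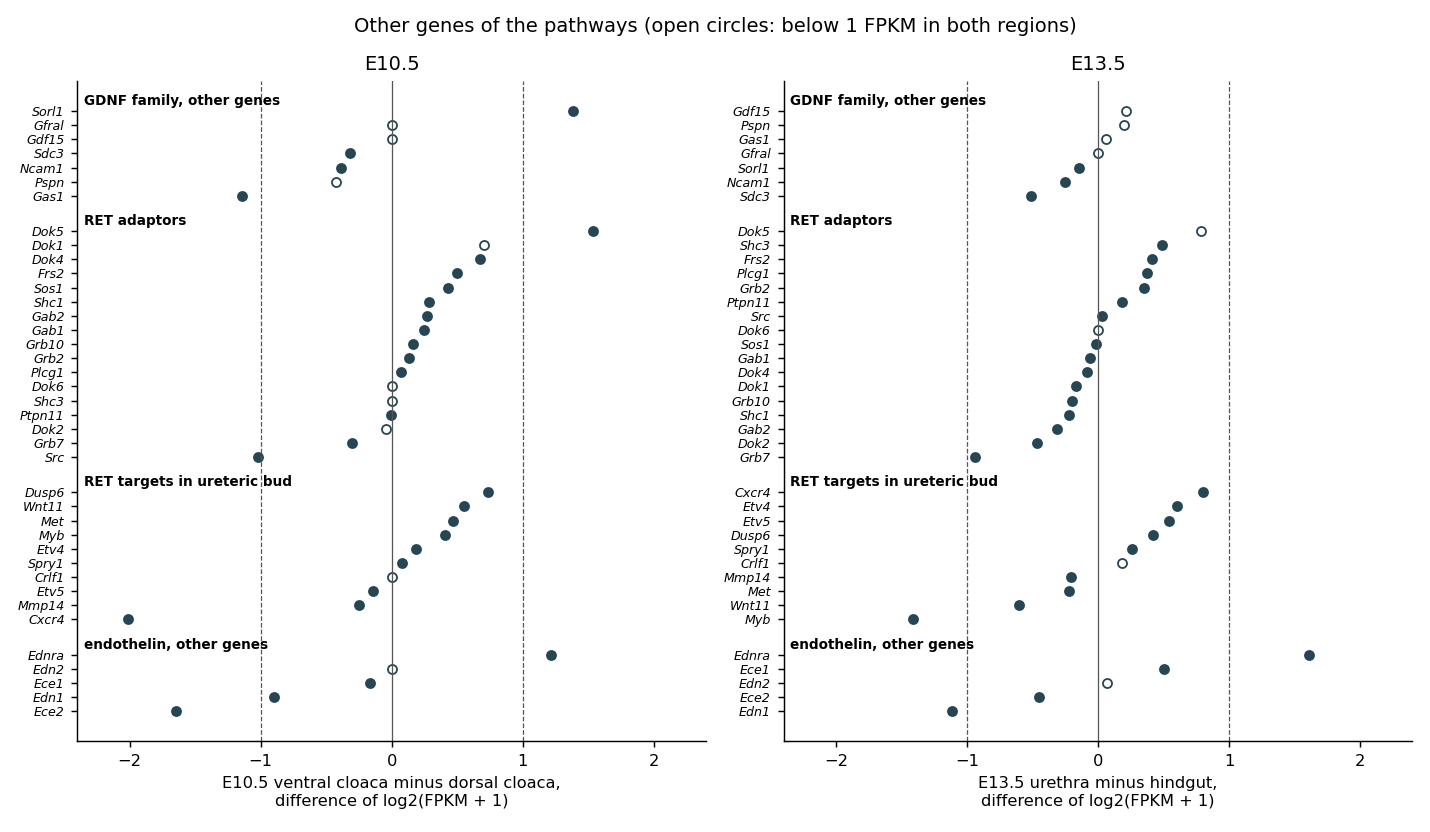
Difference of log2(FPKM + 1) of each listed gene, ventral minus dorsal cloaca at E10.5 (left) and urethra minus hindgut at E13.5 (right), in 4 lists, with open circles for genes below 1 FPKM in both regions and dashed lines at the size rule. Most genes lie within the dashed lines, with Sorl1, Dok5 and Ednra to the right and Gas1, Src, Cxcr4 and Ece2 to the left at E10.5.

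Genes with the most similar levels over the 4 groups were sought for each member that reached 5 FPKM, by the Euclidean distance of log2(FPKM + 1) across both tables. For Gfra2 the nearest was Inhba, an activin subunit gene, at a distance of 0.98, followed by Dlx6 and Hdc. Inhba had 53.2 FPKM in ventral and 0.0557 FPKM in dorsal cloaca, and 7.26 FPKM in urethra and 1.45 FPKM in hindgut. For Ednrb it was Ihh, a hedgehog ligand gene of the gut, at a distance of 1.14. Ihh had 6.90 FPKM in ventral and 4.95 FPKM in dorsal cloaca, and 0.739 FPKM in urethra and 15.7 FPKM in hindgut. Akr1c19 and Ddah1 came next. Amigo2, Thpo and Ddo lay nearest to Ret, at 0.48 to 0.52, and Usp2, Sgsh and Per3 nearest to Gfra1, at 0.29 to 0.38. Dlx6, Sgsh, Amigo2 and Thpo share their spans with other features, which makes their values uncertain. The distance rests on 4 values only.

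The genes next to Gfra2 and Ednrb on chromosome 14, were read for their position after the values of both were known. Beside Gfra2, 2410012E07Rik at 16.2 kb stood at 0.0196 FPKM in ventral cloaca and was listed at 0 in the other groups, and Gm4251 at 271.4 kb was listed at 0 in all 4. Beside Ednrb, 4930432J09Rik at 133.2 kb was counted in the same direction as Ednrb at E13.5. It had 3.31 FPKM in ventral and 4.03 FPKM in dorsal cloaca, and 0.00397 FPKM in urethra against 2.99 FPKM in hindgut, a difference of -1.99. On the other side, 4921525B02Rik at 109.8 kb had 0.303 FPKM in urethra and 0.310 FPKM in hindgut.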

How the data were processed

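RNA from 16 laser-captured samples was amplified with the Ovation RNA-Seq System v2 before library construction, per the labels' protocols. The authors deposited FPKM in 2 tables, 1 for each age and with a column for each region (per the file headers). Per the submitters' processing notes, the tool was Cufflinks 2.2.1 and the genome mm10. For the aligner, gene annotation, strandedness and the way in which 4 libraries became 1 value, the sources used here give nothing, and reads of overlapping or antisense genes may be mixed. Which age a table holds was read from its name. Of 23234 features, 23103 matched a RefSeq name, 271 carry joint names and 3801 share a span. Starts were converted to 1-based positions.

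From the deposited FPKM, differences of log2(FPKM + 1) were computed for genes with at least 1 FPKM in either region. This minimum lets in genes through the region where they are high, and the added 1 shrinks differences of low genes. The planned limma fit and replicate block need values per library and were not run. Read numbers could not be recovered: 24.8% or less of the low values fell within 0.1 of a multiple of a shared step, against 20% by chance. The calculation was tested on simulated data with large differences planted in genes well above the minimum. That test does not cover low genes or differences near the size rule. Alternatives were pseudocounts of 0.1 and 5, no minimum, a minimum of 5 FPKM, upper-quartile scaling and quantile normalization. The 10 genes and the 15 gene lists were chosen with earlier results of these data known. By rule the text names the 10 genes, the genes of each pathway list that were counted at either age (otherwise its 2 highest), and the 3 nearest genes of each member that reached 5 FPKM. Fewer genes of the cell type lists are named than the rule takes, and some are not reported here. Sox10, Foxd3, other markers at or near 0, pathway genes within the size rule and neighbouring genes were named after their values were seen. Python 3.11.15, pandas 2.3.3 and GENCODE M21 were used.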

Additional observations from a re-analysis of the deposited data

How the results depend on the processing

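The counts over all genes depended on the pseudocount and the minimum. With a pseudocount of 5, 401 genes were higher in ventral and 325 in dorsal cloaca, and 173 in urethra and 227 in hindgut. With a minimum of 5 FPKM, 823 were higher in ventral and 691 in dorsal cloaca, and 298 in urethra and 387 in hindgut. With a pseudocount of 0.1, 1738 were higher in ventral and 1575 in dorsal cloaca, and 864 in urethra and 822 in hindgut. Of the 10 genes, a pseudocount of 5 left 1 higher in ventral cloaca, 0 in dorsal cloaca and 1 in urethra, and a minimum of 5 FPKM left 2 in ventral cloaca and 1 in urethra, because Gdnf reached 3.89 and Gfra4 4.94 FPKM at most. Upper-quartile scaling and quantile normalization moved none of the 20 differences of the 10 genes across the size rule. Of 80 such differences recomputed over 4 settings, 72 stayed on their side of it, 4 were lost and 4 gained. None of those counted changed sign. The 4 gained were at a pseudocount of 0.1, all from levels of at most 2.46 FPKM. Among them, Artn at E10.5 at 1.70 and Gfra3 at E13.5 at -1.95 lay below the minimum of 1 FPKM and so stayed uncounted. With that pseudocount, 4 of the 10 genes were counted as higher in ventral cloaca and 3 in urethra. No paired analysis was possible because the tables hold 1 value per region and not 1 per embryo, and for the same reason no embryo could be left out in turn. The depth is unknown, which limits most what can be said of Nrtn, Artn, Gfra3 and Pspn.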
